A study of Mus musculus with 9 samples.

Results

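A chosen set of genes of the classical complement pathway in the hypothalamic RNA-seq table is described here. The set holds C1qa, C1qb and C1qc, which encode the chains of C1q, together with C4b, C3 and Serping1. These 6 genes, of 13588 entries in the table, were chosen by name and function, with the higher immune gene expression of the mice labelled obese in these same libraries already known. Their levels in that group, and every comparison that includes it, are therefore given as a description, and calls in those comparisons are counts that support nothing about these genes. Each of the 6 genes has an entry, and each passed the filter on low values.

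RNA-seq was performed on laser-captured tissue of the mediobasal hypothalamus of 9 adult male mice, a library per mouse, 10 weeks after stereotaxic injection. All mice were C57/BL6 by label, a background the authors give as C57BL/6J. They were homozygous for a floxed Snord116 cluster (Snord116tm1Uta/J), so the AAV-GFP controls carried the allele too. Treatments were AAV-GFP (n = 3) and AAV-Cre (n = 6), and the AAV-Cre mice comprised 3 labelled obese and 3 labelled nonobese. The titles of the AAV-Cre samples contradict these weight labels, since the samples titled Creobese carry the nonobese label and those titled Cre the obese one. Groups are named by the weight label throughout. AAV-Cre expressed the recombinase from a CAG promoter and AAV-GFP used a CMV promoter with a stock of lower titer, so effects of the vector and of the recombination cannot be told apart. Neither virus was restricted to a cell type. The captured region was set by Cre immunostaining of neighboring sections, and Snord116 itself has no entry in the table analysed here.

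Values are signal, which is reads per gene scaled to library size in a manner close to CPM. Libraries held between 3929672 and 5766994 reads on the listed entries, and a single read was worth between 0.175 and 0.262 signal. A floor of 3 reads was used, which lay between 0.525 and 0.786 signal and covers counting error only. Gfp was read in every AAV-GFP library (62.7 to 79.0 signal) and was at 0 reads in every AAV-Cre library. Cre was at 0 to 5 reads in AAV-GFP libraries. Among AAV-Cre libraries Cre signal was lowest in replicates 1 and 3 labelled obese, at 1330 and 235, against 8557 in replicate 2 labelled obese and 4644, 5136 and 7064 in the mice labelled nonobese. The same replicates 1 and 3 labelled obese stood apart in the complement genes below, and the part of vector dose in those values was not tested. Nr5a1, a marker of the ventromedial nucleus, was at 0 reads in replicates 1 and 3 labelled obese, and also in replicate 3 of AAV-GFP and replicate 3 labelled nonobese. In the other libraries Nr5a1 lay between 15.2 and 46.1 signal. Agrp, a neuropeptide of the arcuate nucleus, was at 0 reads in replicates 1 and 3 labelled obese alone. Summed signal of 10 neuronal markers was lowest in replicates 1 and 3 labelled obese, at 2349 and 2218. Every other library had a sum from 2555 to 3005. The part of tissue content in the complement values was not tested.

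Complement is a cascade of plasma and tissue proteins that tags surfaces for removal. In its classical arm C1q binds a target and activates the proteases C1r and C1s. These cleave C4 and C2 to form a convertase, which in turn cleaves C3, the component shared by all arms of the cascade. C1 inhibitor, the product of Serping1, blocks C1r and C1s. In brain, microglia are the main source of C1q, while C3 and C4b are also made by glia and are known to rise in inflammation. Complement is also known for its part in the removal of synapses by microglia.

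The C1q molecule is assembled from A, B and C chains. The genes that encode them are neighbors on chromosome 4 of GRCm38, all on the minus strand, within 18675 bases that hold no other annotated gene. C1qb (ENSMUSG00000036905) lies at chr4:136880129-136886187, C1qc (ENSMUSG00000036896) at chr4:136889804-136893065 and C1qa (ENSMUSG00000036887) at chr4:136895917-136898803. The gaps between them are 3616 and 2851 bases. Because these genes varied together across libraries, the bases just before a pair of them are shown, from RefSeq on GRCm38.p6, 5′ to 3′ on the strand of the gene. The sequence of C1qb spans chr4:136886201-136886450 (250 bases) and that of C1qc spans chr4:136893066-136893164 (99 bases outside the gene). Capitals mark AGGAAGT, the core bound by ETS factors, read on the opposite strand.
C1qb: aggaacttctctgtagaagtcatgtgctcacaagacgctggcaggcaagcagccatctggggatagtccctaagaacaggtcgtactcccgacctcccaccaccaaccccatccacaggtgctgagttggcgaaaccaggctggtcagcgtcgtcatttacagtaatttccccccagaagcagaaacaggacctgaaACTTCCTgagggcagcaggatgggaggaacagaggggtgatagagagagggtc
C1qc: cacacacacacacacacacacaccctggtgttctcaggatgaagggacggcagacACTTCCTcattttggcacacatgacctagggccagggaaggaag
The match starts 53 bases before the RefSeq start of C1qb and 195 bases before that of C1qc, and AGGAAGT on either strand was found in 9.35% of 32851 promoter windows of 300 bases. This motif was picked after the sequences were read. The interferon response core (GAAANNGAA) was searched on both strands in the same windows. It was not found in the windows of C1qb, C1qc or C3, against 8.56% of all windows. RefSeq windows for C1qa, C4b and Serping1 were not used here.

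C1qa was low in AAV-GFP mice, with a signal of 10.7, 9.96 and 13.4 in replicates 1 to 3. In the nonobese group it was 14.3, 13.6 and 23.9. The mice labelled obese had 206, 22.5 and 207, so that replicates 1 and 3 were near each other and replicate 2 lay below the highest mouse labelled nonobese. All 3 mice labelled obese were above every AAV-GFP mouse. Group means were 145 ± 106 (SD, n = 3) in mice labelled obese, 11.4 ± 1.81 (SD, n = 3) in AAV-GFP mice and 17.3 ± 5.74 (SD, n = 3) in mice labelled nonobese. The log2 fold change (log2 FC, of signal + 1) was 3.03 (standard error 0.56) for mice labelled obese against AAV-GFP.

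C1qb was likewise highest in replicates 1 and 3 labelled obese. Its signal was 14.0, 17.0 and 25.6 in AAV-GFP mice, 13.5, 16.5 and 18.8 in the nonobese group, and 191, 32.7 and 207 in mice labelled obese. Replicate 2 labelled obese was again the low mouse of its group, yet remained above all 6 mice of the other groups. Relative to AAV-GFP, its log2 FC was 2.52 in the mice labelled obese, with a standard error of 0.49.

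C1qc had the tightest controls of the chains, at 20.9, 21.1 and 19.4 signal in AAV-GFP mice, with a mean of 20.5 ± 0.916 (SD, n = 3). Mice labelled nonobese had 27.3, 14.1 and 18.1. Mice labelled obese had 195, 16.6 and 189. Here replicate 2 labelled obese was below every AAV-GFP mouse, and the groups overlapped. Relative to AAV-GFP, the log2 FC of C1qc was 2.02 with a standard error of 0.58.

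C4b (ENSMUSG00000073418, chr17:34728380-34743882) encodes C4, the target of the C1 proteases. Its signal was 4.74, 19.5 and 10.5 in AAV-GFP mice and 7.70, 16.0 and 13.2 in the nonobese group. It reached 304, 32.5 and 369 in mice labelled obese, and all 3 of these mice were above all others. Relative to AAV-GFP, its log2 FC was 3.82 with a standard error of 0.62, from group means of 235 ± 178 (SD, n = 3) and 11.6 ± 7.46 (SD, n = 3). C4b shares sequence with its near copy C4a. Of 5737 windows of 50 bases in the transcripts of C4b, 34.6% are also present in C4a, whereas none of the windows of the other 5 genes occur in transcripts of another gene. C4a has no entry in the table, and how reads matching both genes were counted is not given in the sources used here, so the level of C4b is uncertain to that extent.

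C3 (ENSMUSG00000024164, chr17:57203970-57228136) encodes the central component of the cascade. AAV-GFP mice had 0, 28 and 7 reads, and mice labelled nonobese had 2, 40 and 0 reads. Mice labelled obese had 851, 4 and 1026 reads, corresponding to a signal of 192, 0.908 and 238. Replicate 2 labelled obese was thus within the range of the controls, and C3 spanned more than any other of the 6 genes within this group (SD 3.94 on the log2 scale, n = 3). Relative to AAV-GFP, C3 had a log2 FC of 4.17 with a standard error of 1.27.

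Serping1 (ENSMUSG00000023224, chr2:84765387-84775444) encodes the inhibitor of the C1 proteases. AAV-GFP mice had 0, 34 and 29 reads and the nonobese group 25, 4 and 1 reads. Mice labelled obese had 409, 0 and 418 reads, or a signal of 92.0, 0 and 97.1. The 0 reads of replicate 2 allow a signal of up to 0.681. The inhibitor was thus high in the same replicates as the components it controls, and in replicate 2 it was not detectable at this depth. Relative to AAV-GFP, Serping1 had a log2 FC of 2.51 with a standard error of 1.23.

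**Figure D1:**
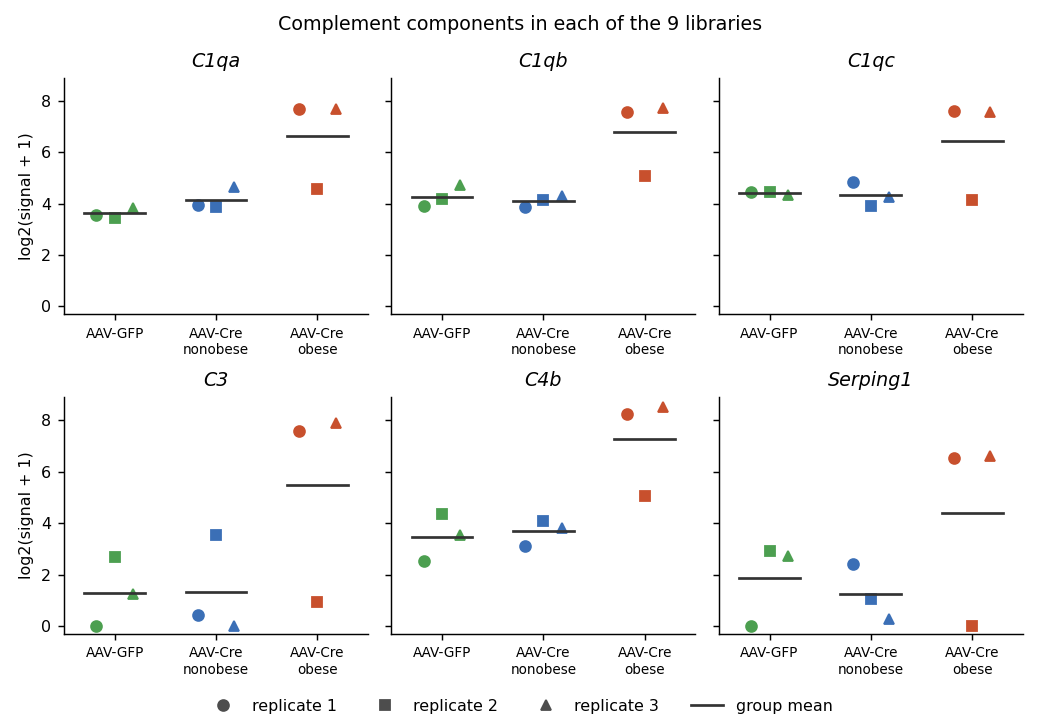
Level of each complement gene, as log2(signal + 1), in the 9 libraries, by group. Symbols mark the replicate number, which was not used to pair mice, and lines mark group means (n = 3). In all 6 panels replicates 1 and 3 labelled obese lie above the other 7 libraries, whereas replicate 2 labelled obese lies near the AAV-GFP and nonobese libraries.

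The 6 genes thus shared a pattern among the mice labelled obese. In each, the lower of replicates 1 and 3 was above the highest of the other 7 libraries, by 5.84-fold for C1qb, 6.94-fold for C1qc, 8.63-fold for C1qa, 9.37-fold for C4b, 14.1-fold for Serping1 and 18.3-fold for C3. Between these replicates themselves the signal differed little, with ratios of replicate 1 to replicate 3 from 0.803 for C3 to 1.03 for C1qc. Across the 9 libraries, Pearson's r between the genes on the log2 scale lay between 0.817 (C1qa and Serping1) and 0.972 (C1qa and C1qb) over 15 pairs. These correlations share the same libraries and rest largely on the same 2 high ones. Since the samples are bulk tissue, more cells of a type and more RNA per cell cannot be told apart.

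Per kilobase of exon, which allows levels of different genes to be compared, C1qb ranked first in AAV-GFP mice with 17.4 ± 5.56 signal per kilobase (SD, n = 3). C1qa followed with 10.9 ± 1.74 and C1qc with 10.6 ± 0.474, and the ranges of C1qa and C1qc overlapped, as did those of C1qb and C1qa. C4b was next at 2.03 ± 1.31, followed by Serping1 at 1.74 ± 1.52 and C3 at 0.436 ± 0.542, whose ranges overlapped in turn. The lowest C1q value in an AAV-GFP library (9.57) was above the highest value of C4b, Serping1 or C3 (3.43). In mice labelled obese the same scale gave 140 ± 102 for C1qa, 132 ± 88.6 for C1qb, 69.1 ± 52.5 for C1qc, 41.3 ± 31.3 for C4b, 27.9 ± 24.5 for C3 and 27.1 ± 23.5 for Serping1 (SD, n = 3 each). The ranges of neighbors in this order overlapped. Within replicates 1 and 3, C3 was at 37.2 and 46.4 signal per kilobase, close to Serping1 at 39.6 and 41.8.

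As subunits of one protein, the C1q chains were also compared with each other. Of their summed signal per kilobase, C1qa made up 28.2% ± 1.96 in the AAV-GFP group, 39.1% ± 6.36 in the nonobese group and 39.5% ± 3.17 in the obese group (SD, n = 3 each). C1qb made up 43.9% ± 6.47, 36.0% ± 6.05 and 42.0% ± 6.93 in the same order. C1qc made up 27.9% ± 5.51, 24.9% ± 8.88 and 18.5% ± 3.76. Replicates 1 and 3 labelled obese, with the highest sums, had C1qa shares of 41.8% and 40.8%, C1qb shares of 36.9% and 39.1% and C1qc shares of 21.2% and 20.1%. Each of these lies within the range of the mice labelled nonobese (34.2% to 46.3%, 30.7% to 42.6% and 18.9% to 35.1%). The C1qa share of AAV-GFP mice, 26.5% to 30.3%, was below that of all AAV-Cre mice, a difference that was seen after the values were known and was not tested.

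**Figure D2:**
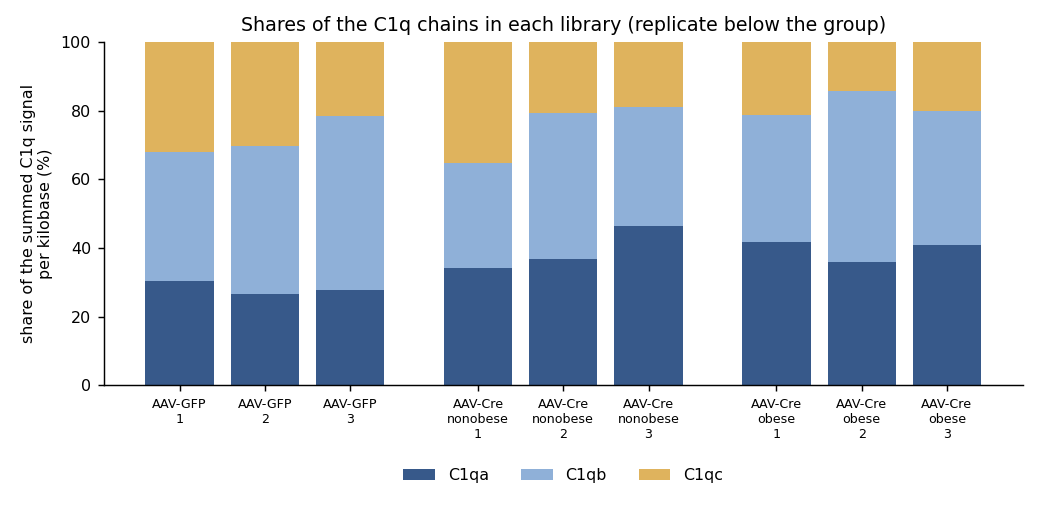
Stacked bars give the share (%) of each C1q chain in the summed C1q signal per kilobase of exon, a bar per library, with the group and replicate number below. C1qa takes 26.5% to 30.3% in AAV-GFP libraries and 34.2% to 46.3% in AAV-Cre libraries, and the highly expressing replicates 1 and 3 labelled obese do not stand apart.

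Comparisons between groups were made with limma over 13506 entries, and a call is an FDR under 0.1. For mice labelled obese relative to AAV-GFP, 3 of 6 genes were called higher (C1qa, C1qb and C4b) and 0 lower, beside 0.422% of all entries called higher. Because the genes were chosen with this difference known, nothing is read from the count. For 3 of 6 genes, the same 3, all mice labelled obese were above all AAV-GFP mice, as were 7.18% of all entries. The median log2 FC of the 6 genes was 2.77, against −0.04 over all entries. The calls depended on the variance model and on single mice. With no variance trend 0 genes were called, at the same log2 FCs. Without replicate 1 labelled obese 0 genes were called, without replicate 3 labelled obese 1, without replicate 1 of AAV-GFP 0, and without replicate 2 labelled obese all 6.

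The mice labelled obese were also set against those labelled nonobese, both of which received AAV-Cre. These subsets differ in Cre signal as well as in weight label, and the titles contradict the labels, so weight gain cannot be told apart from these. The log2 FCs were 2.50 for C1qa, 2.69 for C1qb, 2.11 for C1qc, 3.60 for C4b, 4.16 for C3 and 3.14 for Serping1, with a median of 2.91 against −0.02 over all entries. Called higher were 3 genes (C1qa, C1qb and C4b), beside 0.733% of all entries. For C1qb and C4b all 3 mice labelled obese were above all 3 labelled nonobese, as were 6.65% of entries. This comparison uses the same mice labelled obese as the previous one, so its values are not independent of those above. With no variance trend, without replicate 1 or without replicate 3 labelled obese 0 genes were called, and without replicate 2 all 6.

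The mice labelled nonobese against AAV-GFP form the comparison that the choice of genes did not use. Here each log2 FC was smaller in size than its standard error. These errors, and the p-values and FDRs from limma, come from the fit of all 3 groups. The wide spread among mice labelled obese therefore enters them. For C1qa the SD on the log2 scale was 0.205 in AAV-GFP mice, 0.425 in the nonobese group and 1.82 in mice labelled obese, and the residual SD of the fit was 1.08. The log2 FCs were 0.53 for C1qa, 0.21 for C4b, 0.02 for C3, −0.09 for C1qc, −0.17 for C1qb and −0.63 for Serping1, with standard errors from 0.49 to 1.27. With limma the FDR was 0.999 for each, 0 of 6 were called, and 0 had an unadjusted p under 0.05. EdgeR and DESeq2 on recovered reads also called 0. Over all entries 0.0148% were called in either direction, 1 higher and 1 lower. All entries include Cre and Gfp, which came from the vectors and had the highest and lowest log2 FC here. This share is therefore no measure of how readily a mouse gene was called, and 0 of 6 cannot be judged against it. C1qa alone was higher in all mice labelled nonobese than in all AAV-GFP mice, a separation seen in 4.57% of entries. For C3 and Serping1, whose standard errors in this fit were 1.27 and 1.23, a difference of that size was not detectable with it. The log2 SDs of C3 were 1.34 in AAV-GFP mice, 1.92 in the nonobese group and 3.94 in mice labelled obese. Those of Serping1 were 1.63, 1.09 and 3.80 in the same order.

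With all 6 AAV-Cre mice against AAV-GFP, log2 FCs were 1.78 (standard error 0.67) for C1qa, 1.17 (0.65) for C1qb, 0.96 (0.64) for C1qc, 2.01 (0.86) for C4b, 2.09 (1.36) for C3 and 0.94 (1.23) for Serping1. None was called by limma, edgeR or DESeq2, and 2 had an unadjusted p under 0.05 in limma, with 0.0222% of all entries called. Cre and Gfp again had the highest and lowest log2 FC of all entries, so this share has the same limit. The sign for Serping1 turned, to a log2 FC of −0.003, without replicate 1 of AAV-GFP. The AAV-GFP mice are shared with the other comparisons. SDs over the 6 AAV-Cre mice, from 48.2 signal for Serping1 to 166 for C4b, exceeded their means.

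**Figure D3:**
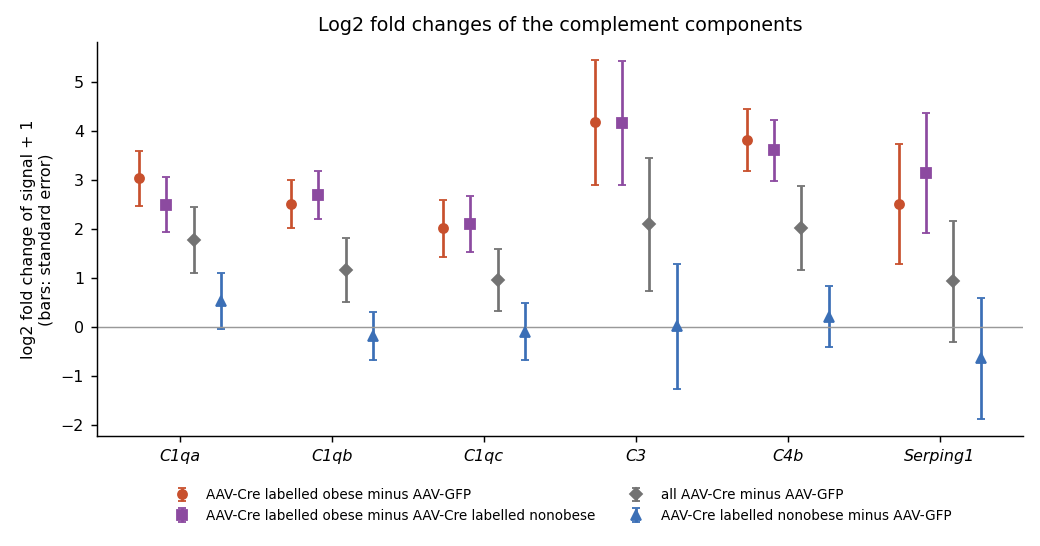
Log2 fold changes of signal + 1 (points) with standard errors (bars) for each complement gene in 4 comparisons, which share mice. Values for mice labelled obese lie between 2.02 and 4.17 against AAV-GFP, and those for mice labelled nonobese against AAV-GFP lie between −0.63 and 0.53.

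Of 52 other complement genes listed for lectin and classical initiation, the alternative and terminal arms, regulators and receptors, 24 have an entry and 23 were tested. All 7 terminal genes, C2, C4a and Cfb, which encodes factor B, are without an entry. Itgb2, the beta chain of complement receptors 3 and 4, was the only one of the 23 called when mice labelled obese were set against AAV-GFP (FDR = 0.0563 from limma), beside 0.422% of all entries called higher. It was likewise the only one called against mice labelled nonobese (FDR = 0.0245 from limma), beside 0.733% of all entries. Its signal was 6.23, 3.45 and 6.80 in AAV-GFP mice, 6.65, 3.93 and 3.20 in the nonobese group, and 53.8, 18.4 and 56.7 in mice labelled obese, without overlap. Neither call was stable to single mice. Without replicate 1 or 3 labelled obese, or without any of the AAV-GFP mice, 0 of the 23 were called against AAV-GFP, and without replicate 2 labelled obese 4 were. Against mice labelled nonobese, 0 were called without replicate 1 or 3 labelled obese or replicate 3 labelled nonobese, and 4 without replicate 2 labelled obese. The median log2 FC of the 23 was 0.06 against AAV-GFP and 0.19 against mice labelled nonobese, close to the −0.04 and −0.02 of all entries. For 6 of the 23 all mice labelled obese were above all AAV-GFP mice, beside 7.18% of all entries. For 4 they were above all mice labelled nonobese, beside 6.65%. Both counts include Itgax, which passed the filter through the mice labelled obese alone, so its separation was fixed in advance. An unadjusted p under 0.05 in limma was seen for 6 and 7 of the 23, beside 1335 and 1539 of 13506 entries. The list was chosen with earlier results known, so nothing is read from these counts. In mice labelled nonobese against AAV-GFP, and in all AAV-Cre mice against AAV-GFP, 0 of 23 were called by limma, edgeR or DESeq2, with 1 and 0 at an unadjusted p under 0.05.

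The proteases that C1q activates were nearly absent from the controls. C1ra, which encodes C1r, had 1, 4 and 2 reads in AAV-GFP mice and 17, 0 and 5 in mice labelled nonobese. Mice labelled obese had 103, 10 and 137 reads of C1ra (log2 FC 3.24 against AAV-GFP, standard error 0.96, FDR = 0.186 from limma). C1s1, encoding C1s, was at 0 reads in all AAV-GFP mice and all mice labelled nonobese and did not pass the filter. It had 47, 0 and 42 reads in mice labelled obese, a mean at least 10.7-fold higher than the mean AAV-GFP floor. Both proteases were therefore highest in the replicates that were highest for C1q, and so was the inhibitor Serping1.

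Receptors differed in how far they followed this order. Itgam, the alpha chain of complement receptor 3, had 31.7, 23.9 and 13.4 signal in AAV-GFP mice, 16.1, 31.7 and 19.0 in the nonobese group and 43.0, 39.0 and 50.9 in mice labelled obese, where replicate 2 was again the lowest of its group but above every AAV-GFP mouse (log2 FC 0.99, standard error 0.40, FDR = 0.392 from limma). Itgax, the alpha chain of complement receptor 4, had 47, 21 and 77 reads in mice labelled obese, a mean at least 17.4-fold above the mean AAV-GFP floor. At most 2 reads of Itgax were seen in any other library, so it passed the filter through the mice labelled obese alone. Its FDR against AAV-GFP was 0.178 from limma. C3ar1, the receptor for the C3a fragment, had 17, 17 and 5 reads in AAV-GFP mice, 2, 0 and 27 in the nonobese group and 121, 0 and 103 in mice labelled obese. For the integrin chains Itgb2 and Itgam every mouse labelled obese was above every AAV-GFP mouse, a separation seen in 7.18% of all entries. For Itgax that separation was fixed by the filter, so nothing is read from it. In replicate 2 labelled obese C3 was at 4 reads and C3ar1 at 0.

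The regulators Cd55 and Cr1l, which act on the C3 step, were called in none of the comparisons. Cd55, encoding decay-accelerating factor, had log2 FCs of −0.06 and −0.77 in mice labelled obese and nonobese against AAV-GFP (standard error 0.83 each). Cr1l, encoding the rodent regulator Crry, was at 3.99, 6.51 and 11.7 signal in AAV-GFP mice and 16.7, 0.908 and 14.9 in mice labelled obese (log2 FC 0.06, standard error 0.81). For Cr1l replicates 1 and 3 labelled obese were the highest of all libraries, 1.16-fold above the next, and for Cd55 they lay within the range of the other groups.

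**Figure D4:**
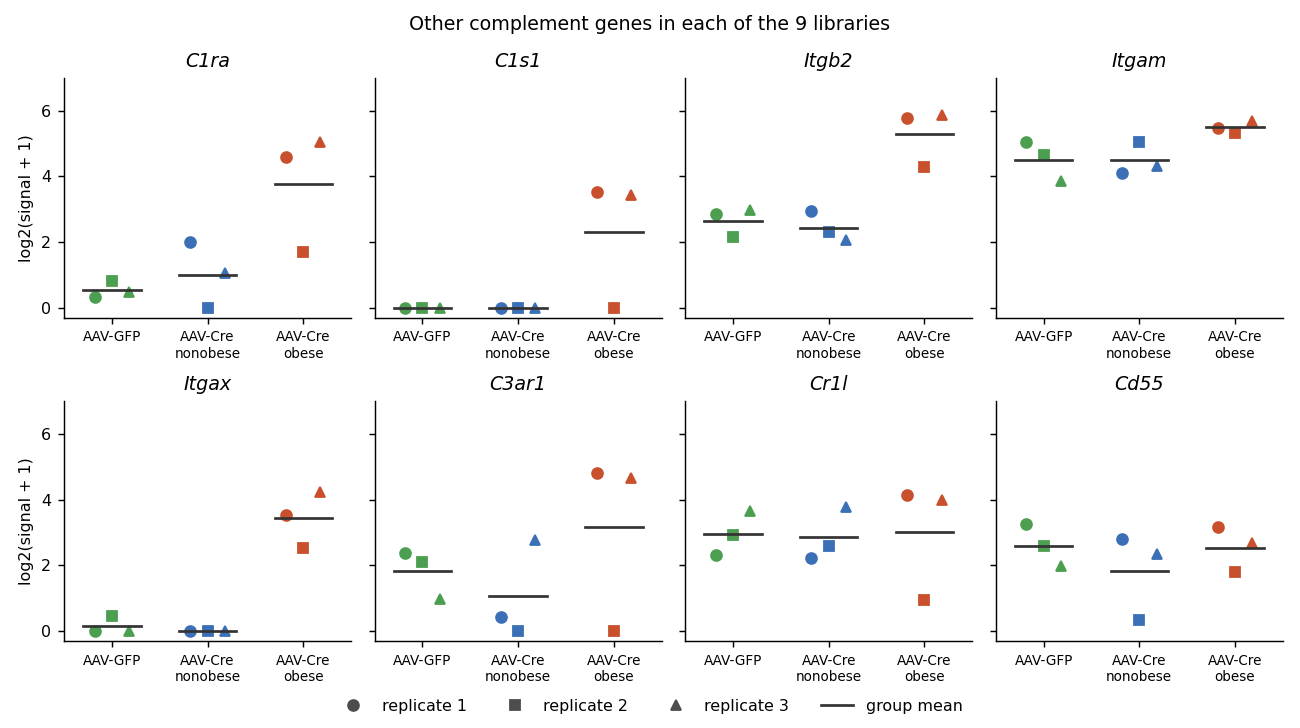
Levels of 8 other complement genes, as log2(signal + 1), in the 9 libraries by group, with replicate symbols and group means. C1ra, C1s1 and C3ar1 are high in replicates 1 and 3 labelled obese, Itgb2, Itgam and Itgax in all 3 mice labelled obese, and Cd55 is in neither set. For Itgb2 and Itgam the mice labelled obese lie above all AAV-GFP mice, as for 7.18% of all entries. Itgax passed the filter through the mice labelled obese alone, which fixed its separation.

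Marker genes of cells that could contribute complement were examined in the same libraries. Of 12 microglial markers 11 have an entry, and their summed signal was 151 to 178 in AAV-GFP mice, 133 to 186 in mice labelled nonobese and 207 to 521 in mice labelled obese, with 0 of 11 called against AAV-GFP. The list as a whole was highest in replicates 1 and 3 labelled obese, with sums of 521 and 411 against 207 in replicate 2. The defining microglial genes P2ry12 and Siglech did not follow the list and were not high where C1q was. P2ry12 was at 40 and 31 reads in replicates 1 and 3 labelled obese and 83 in replicate 2. It was at 44 to 83 reads in AAV-GFP mice and 24 to 45 in mice labelled nonobese. Tmem119, another defining gene, was at 45.2 and 18.4 signal in replicates 1 and 3 labelled obese and at 0 to 13.5 in the other 7 libraries. Mean log2 level of the C1q chains minus that of the microglial list was 0.61, 0.53 and 0.53 in AAV-GFP mice, 0.59, 0.98 and 1.06 in the nonobese group, and 2.84, 0.79 and 3.13 in mice labelled obese. The C1q chains thus exceeded the microglial list by more in replicates 1 and 3 labelled obese than in any other library.

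Lists of other cell types were summed in the same way. Of 9 macrophage and monocyte markers 6 have an entry, and they summed to 6.60 to 23.9 in AAV-GFP mice, 6.19 to 29.1 in mice labelled nonobese and 48.3 to 321 in mice labelled obese. Of 11 T cell markers 7 have an entry, with sums of 6.13 to 8.73, 9.39 to 11.4 and 13.2 to 122, and Cd8a and Cd8b1 were at or under 3 reads in every library not labelled obese. Of 9 B and plasma cell markers 6 have an entry, with sums of 1.75 to 8.43, 29.9 to 44.2 and 76.0 to 4915, and Mzb1 and Cd79a were at or under 3 reads in every library not labelled obese. The astrocyte list of 10 genes summed to 2338 to 2854, 2203 to 2911 and 2788 to 3489. Within it Gfap, which rises in reactive astrocytes, was at 369, 130 and 640 signal in mice labelled obese and at 10.1 to 83.0 in AAV-GFP mice. The 5 neutrophil and 5 hepatocyte markers have no entry. The part of these cells in the complement values was not tested.

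A list of 20 genes induced by interferon was set beside the components. For mice labelled obese relative to AAV-GFP, 8 of 20 were called higher, 0 lower and the others were not called, beside 0.422% of all entries called higher. Their mean log2 level was 7.04, 2.50 and 6.77 in mice labelled obese, 2.51, 3.10 and 2.03 in AAV-GFP mice and 2.04, 1.86 and 2.09 in mice labelled nonobese. Replicate 2 labelled obese lay within the AAV-GFP range for this list, as it did for C3 and Serping1. This list too was drawn up with immune differences in these mice known.

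**Figure D5:**
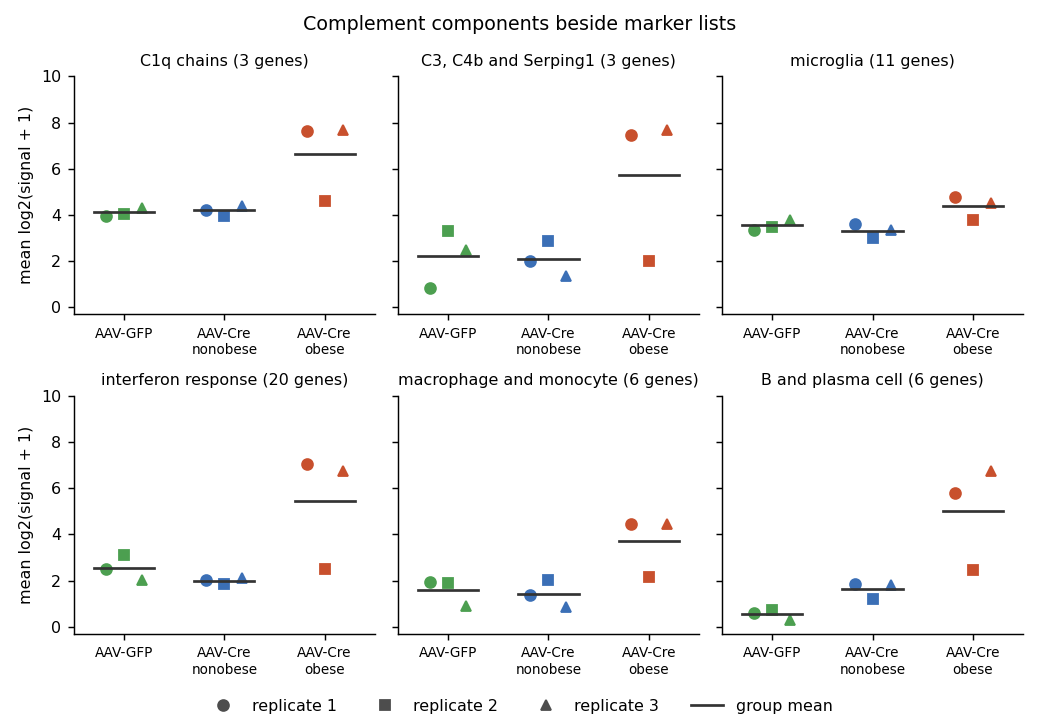
Mean log2(signal + 1) of the C1q chains, of C3, C4b and Serping1, and of 4 lists of other genes in each library, by group, with replicate symbols and group means. Replicates 1 and 3 labelled obese are highest in all 6 panels, with the microglial list at 4.79 and 4.53 against 2.99 to 3.80 in the other libraries.

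The entries whose levels followed each gene most closely were named by Pearson's r of log2 signal over 9 libraries, among 11867 entries, as a description without a test. For C1qa these were Lgmn, a lysosomal protease (r = 0.990), Jchain (0.976) and Vcam1 (0.975). For C1qb they were H2-K1 (0.981), Gbp3 (0.978) and Cd74 (0.975), and for C1qc H2-Eb1 (0.994), Gimap4 (0.994) and H2-Aa (0.993). H2-Eb1, H2-Aa and Cd74 belong to the machinery of class II antigen presentation, and H2-K1 to class I. C3 was followed by Clec7a (0.978), Skap2 (0.970) and Grn (0.968), and C4b by Lcp1 (0.983), Ly6e (0.977) and Gbp3 (0.975). Serping1 was followed by Gbp2b (0.963), Impdh2 (0.956) and Ccl5 (0.954). Between 52 and 154 entries had r above 0.9 with a given complement gene, and as before the points share 2 high libraries.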

How the data were processed

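Reads of 9 laser-capture libraries (picogram RNA input, SMARTer stranded pico kit, single-end reads of 50 bases) were mapped by the authors to GRCm38 with TopHat. The submitters' processing notes name TopHat2 2.0.11, HTSeq, edgeR and limma. The strand setting, the treatment of reads matching several genes and the filter on low entries are not given in the sources used here. The deposited values are signal: the authors divided reads per gene by a TMM-scaled library size and multiplied as in CPM. In each library 100% of values were whole multiples of a single read (tolerance 0.01), which gave the reads printed. The lowest total of an entry was 50 reads.

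From the deposited signal, log2(signal + 1) was fitted with limma 3.58.1 in R 4.3.3, with a variance trend, 3 groups in a fit (2 groups for all AAV-Cre mice) and Benjamini-Hochberg adjustment (FDR), over entries that reached a signal of 1 in 3 or more libraries. The procedure was tested on simulated counts in which each change was shared by all mice labelled obese. That setting does not cover genes high in replicates 1 and 3 labelled obese alone, and nothing is drawn from it here. The design had assumed CPM, and signal was tested in the same way. Fold changes on this scale understate the change of low genes. Alternatives included edgeR 4.0.16 and DESeq2 1.42.0 on the recovered reads. Symbols were matched for 13446 of 13586 Ensembl identifiers, and positions come from GENCODE M21. Groups follow the weight label. The genes and lists were chosen with earlier results of these data known. Named genes are the 6 components, other complement genes with an FDR under 0.1, a set of genes acting beside the components, and for each component the 3 entries of highest correlation with a mean signal of at least 5. Some results for items on these lists are not reported here.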

Additional observations from a re-analysis of the deposited data

Results flagged for a closer look

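Between the AAV-Cre mice labelled obese and those labelled nonobese, limma called a difference for C1qa (log2 FC 2.50), C1qb (2.69), C4b (3.60) and Itgb2 (2.87), which were listed because the subsets of treated mice differed. For C1qa, C1qb and C4b this is the difference that was known when the genes were chosen. All 4 are highest in replicates 1 and 3 labelled obese.

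C5ar2, a receptor for the C5a fragment, stood apart among the 6 AAV-Cre libraries in replicate 2 labelled obese, at 10.9 signal against 1.92 to 4.45 in the other 5 and 2.72 to 6.98 in AAV-GFP mice. It was the only one of 32 values with a library set apart in this way, where 1.6 would be expected by chance. A pair of high libraries, as in the 6 components, does not meet this criterion.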

How the results depend on the processing

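In mice labelled obese against AAV-GFP and against mice labelled nonobese, the log2 FC of each component stayed positive under all 108 alternative values per comparison. Against AAV-GFP, in mice labelled nonobese 7 of 108 values changed sign, and 0 of the 6 components and 0 of 23 other complement genes were called under any alternative. For all AAV-Cre mice 1 of 126 values changed sign, and again 0 and 0 were called. Called components against AAV-GFP (3 of 6) numbered 0 with no variance trend, 5 with edgeR (quasi-likelihood or likelihood ratio test) and 0 to 6 when each mouse was left out. Against mice labelled nonobese (3 of 6) they numbered 5 with a pseudocount of 5, 0 with no variance trend, 6 with the likelihood ratio test and 0 to 6 without each mouse. Other complement genes called against AAV-GFP (1) numbered 0 with a pseudocount of 0.1 or an FDR threshold of 0.05, 4 with a pseudocount of 5, 2 with quantile normalization, 3 with the likelihood ratio test, 4 with DESeq2 and 0 to 4 without each mouse. Against mice labelled nonobese (1) they numbered 2 with a pseudocount of 5, 2 and 3 with the quasi-likelihood and likelihood ratio tests, 4 with DESeq2 and 0 to 4 without each mouse. The cause of these shifts was not tested.

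Replicate numbers were not taken as pairs in the main fits. Deviations from group means were correlated at −0.02 to 0.09 between same-numbered libraries, against −0.088 to 0.04 for other pairs. Of the same-numbered pairs 0 of 9 exceeded 0.1. These correlations cover all tested entries, most of which are not regional markers. The mean log2 level of 11 mediobasal hypothalamus markers was lowest in replicate 3 of each group, at 2.97 in AAV-GFP, 3.50 in nonobese and 2.80 in obese. Nr5a1 was at 0 reads in replicate 3 of each group, and also in replicate 1 labelled obese. The authors name the AAV-GFP controls region-matched, and whether the numbers follow that matching is not known and was not tested. With the replicate block 5 components and 2 other complement genes were called against AAV-GFP, and 5 and 3 against mice labelled nonobese.

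With no length correction, mean C1q shares in AAV-GFP mice were 22.4% for C1qa, 36.6% for C1qb and 41.0% for C1qc. The C1qa and C1qc shares were then 32.0% and 37.1% for the nonobese group, and 33.5% and 29.1% for the obese group. Without C1qb, the C1q level above the microglial list averaged 0.475 in AAV-GFP mice.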
